A study of Caenorhabditis elegans with 15 samples.

Results

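The 52 genes described here encode the glutathione transferases of Caenorhabditis elegans and the enzymes that make and recycle glutathione. They were taken by WormBase symbol, and comprise 44 genes named gst-, 2 named gstk-, 3 named gsto-, and gcs-1, gss-1 and gsr-1. Each had to reach a total of at least 10 counts over the 15 samples, which 19595 of the 46778 genes in the count table did. None of the 52 candidates was lost to that minimum, and the nearest to it were gst-25 with 10 counts and gst-37 with 12. The samples were total RNA of whole worms of N2, the wild-type laboratory strain, in 3 groups of 5 samples. SiO2 worms received 10 µg/ml of SiO2 nanoparticles, Ag worms received 10 µg/ml of Ag nanoparticles, and Control worms received none. All 3 groups were fed E. coli OP50 and grown for 72 h at 21 °C to adult day 1, from 350 to 400 first-stage larvae. The paper's methods and its discussion both place the particles in the medium throughout that growth, from the first larval stage. The sample labels instead place the exposure at adult day 1, the stage at which that growth ended. The nanoparticles were compared with Control to learn which transcripts change with each, and with one another to learn where they differ.

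Glutathione is a tripeptide that buffers the redox state of the cell. gcs-1 encodes the catalytic subunit of glutamate-cysteine ligase, the rate-limiting step of its synthesis, gss-1 encodes glutathione synthetase, and gsr-1 encodes the reductase that regenerates glutathione from its oxidised form. The transferases couple glutathione to electrophiles, including lipid peroxidation products and foreign compounds, or use it as a cofactor. In C. elegans the transcription factor SKN-1, a relative of mammalian Nrf2, drives gcs-1, gst-4 and other members under oxidative or electrophilic stress, and gst-4 is a widely used reporter of its activity.

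Reads assigned to genes ranged from 16560734 to 24296570 per sample, and the 52 genes together took 0.0849% to 0.1105% of them. Expression is given as CPM, counts scaled to library size by the TMM method over all 15 samples, so that 1 CPM stands for roughly 20 reads in a sample. At this level 39 of the 52 genes averaged 1 CPM or more and 13 averaged less. Defining markers of intestine, muscle, pharynx, neurons, hypodermis, germline and sperm were detected in every sample, apart from the molting collagen col-17, which had no count in 1 sample. One library stood apart for these genes. Ag replicate 8 had the fewest reads of the 15 and the lowest mean correlation with its own group (0.968, against 0.979 to 0.983 for the other Ag samples). Its value was the highest of the Ag group in 25 of the 39 genes at 1 CPM or more (64.1%), whereas over all 14287 genes of that level it was the highest in 24.7%. Results that rest on it are given with and without it.

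Levels of different genes were compared per kilobase of exon. In Control the order was led by gst-1, with 141 ± 22.6 CPM per kb (SD, n = 5), then gst-7 with 119.2 ± 16.7, gsr-1 with 73.7 ± 8.26 and gst-27 with 62.5 ± 4.58. gst-42, a zeta-class enzyme of tyrosine breakdown, followed with 53.2 ± 1.69, and gst-36 with 50.04 ± 6.38 CPM per kb. These 6 genes held 50.8% of the summed level per kilobase of the 52 genes in Control. gcs-1 and gss-1 stood at ranks 9 and 10, with 36.9 ± 3.66 and 35.1 ± 3.49 CPM per kb, close to one another and within their spread. Of the 51 pairs of neighbours in the order, 13 differed by more than the larger of their SDs, so most neighbours cannot be ranked from these samples. gst-1 and gst-7, at the head, did not differ by that measure, while gst-7 and gsr-1 did. The reporter gene gst-4 ranked 24 of 52 in Control, with 7.38 ± 3.13 CPM per kb. gst-9, gst-2, gst-44 and the genes below them were under 1 CPM per kb in Control. The 39 genes at 1 CPM or more spanned a 123-fold range.

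**Figure D1:**
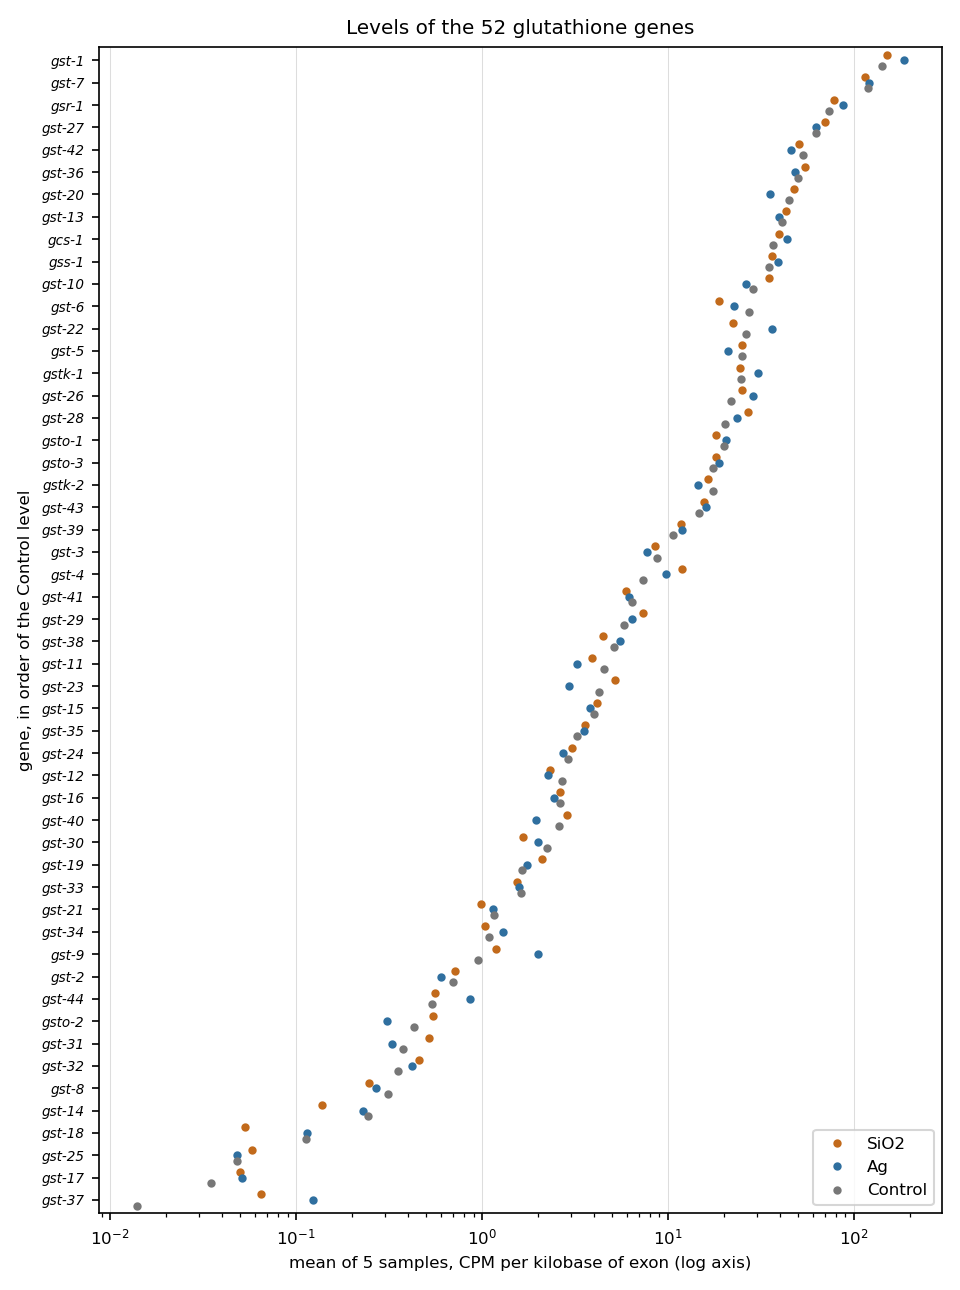
Mean level of each of the 52 genes (vertical axis, in the order of Control) as CPM per kilobase of exon on a log axis, with orange points for SiO2, blue for Ag and grey for Control (5 samples each). The 3 points of a gene lie close together beside the range between genes, and gst-9 (2.00 in Ag, 0.95 in Control) is one of the genes whose points separate.

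Summed over the 52 genes, the level per sample averaged 943 ± 70.8 CPM in SiO2, 980 ± 120 CPM in Ag and 909 ± 60.7 CPM in Control (SD, n = 5 each). The samples ran from 850 to 1033 CPM in SiO2, 872 to 1175 CPM in Ag and 840 to 973 CPM in Control, so the groups overlapped. The 1175 CPM came from Ag replicate 8, and without it the Ag mean was 931 CPM. In these bulk samples, fewer cells of a type and less RNA per cell cannot be told apart.

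Gene by gene, few of the 52 were called, a call being an adjusted p under 0.05 in the edgeR quasi-likelihood test, adjusted by Benjamini-Hochberg over every gene tested. In SiO2 against Control 1 of 52 was called, gst-6, which was lower, and none was called higher. The background was 2.66% of 20739 genes called, 0.743% lower and 1.91% higher. In Ag against Control 1 of 52 was called, gst-9, which was higher, where 7.76% of 20669 genes were called 4.35% higher and 3.41% lower. In the direct comparison of SiO2 with Ag, fitted on all 15 samples, 4 of 52 were called: gst-10, gst-20 and gst-23 were higher and gst-22 was lower in SiO2. There 3.4% of 21180 genes were called, 2.04% higher and 1.36% lower. The 2 comparisons with Control share their Control samples.

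At an unadjusted p under 0.05, 4 of 52 genes differed in SiO2 from Control (3 higher, 1 lower), where 14.9% of all genes did (8.95% higher, 5.97% lower). In Ag 11 of 52 differed from Control (8 higher, 3 lower), against a background of 29.9% (15.3% higher, 14.6% lower). Between SiO2 and Ag 9 of 52 differed (4 higher and 5 lower in SiO2), against 20.9% (13.2% higher, 7.72% lower). All 5 samples of a group lay on one side of the other group in 2 genes for SiO2 against Control, where 3.73% of all genes were so placed. Of these, gst-10 was higher and gst-6 lower (background 1.87% and 1.86%). Ag was so separated from Control in 3 genes (9.2%), 2 higher (gst-9 and gst-37) and 1 lower (gst-20; 4.29% and 4.91%), and SiO2 from Ag in 4 (4.8%), 3 higher and 1 lower (2.48% and 2.32%). The median log2 fold change of the 52 genes was 0.06 in SiO2 and 0.01 in Ag relative to Control, beside 0.01 and -0.01 for all genes tested, and 0.03 for SiO2 minus Ag, beside 0.01. The genes at 1 CPM or more numbered 39 in each comparison, and 1, 0 and 4 of them were called in SiO2 against Control, Ag against Control and SiO2 against Ag, where 3.35%, 10.5% and 4.71% of the 14287 genes of that level were called. In Ag, 8 of the 39 had an unadjusted p under 0.05, where 38.1% of the genes of that level did. The edgeR likelihood ratio test and DESeq2 called gst-1 and gst-20 there as well as gst-9, in fits that called 13.4% and 15.3% of all genes.

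**Figure D2:**
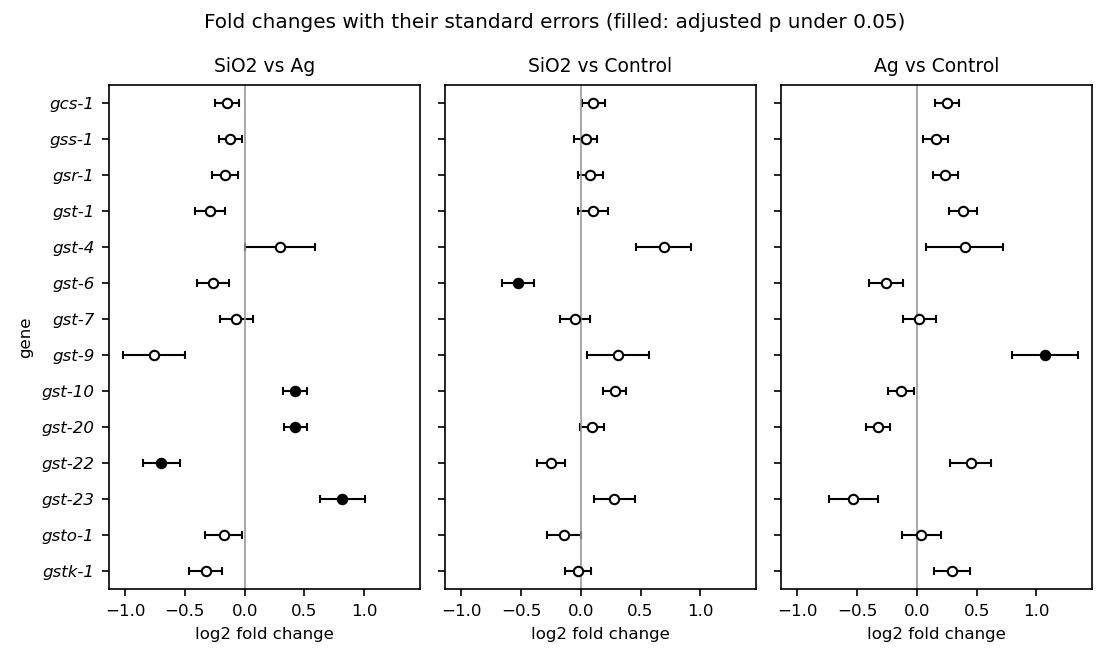
Log2 fold changes (horizontal axis) with standard errors for 14 named genes in the 3 comparisons, 1 panel each, from edgeR fits with 5 samples per group; filled points passed an adjusted p of 0.05. Filled points are gst-10, gst-20, gst-22 and gst-23 for SiO2 vs Ag, gst-6 for SiO2 vs Control and gst-9 for Ag vs Control.

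gst-6 (WBGene00001754, chromosome II, 4879891 to 4881105 on the plus strand of WBcel235) was the member called for SiO2. Its level was 14.7, 15.0, 15.2, 15.2 and 12.2 CPM in the SiO2 samples and 25.99, 20.7, 15.8, 20.3 and 21.4 CPM in the Control samples. Every SiO2 sample lay below every Control sample, although the Control sample nearest to them, at 15.8 CPM, was close. The log2 fold change was -0.53 (SE 0.13), with an edgeR adjusted p of 0.0491 and a p of 0.0079 in the exact permutation test, which cannot go lower with 5 samples against 5. In Ag the gene overlapped both groups, with 19.7, 16.999, 20.4, 14.7 and 15.1 CPM, and the differences of -0.26 (SE 0.14) from Control and -0.26 (SE 0.13, SiO2 minus Ag) did not pass (edgeR adjusted p 0.23 and 0.263). The SiO2 call lay at the threshold: leaving out any sample except Control replicate 3 ended it, with log2 fold changes of -0.61 to -0.44 and edgeR adjusted p of 0.0256 to 0.11 over the 10 fits. These fits called 1.22% to 4.14% of all genes, against 2.66% with all samples. The call was also lost with scaling by library size alone (edgeR adjusted p 0.0529) and with all 15 samples in one fit (0.0679). There 2.27% and 1.05% of all genes were called.

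gst-9 (WBGene00001757, chromosome II, 4891585 to 4893573, plus strand) was the member called for Ag. The Ag samples had 1.54, 1.96, 0.963, 0.975 and 1.699 CPM, and the Control samples had 0.744, 0.589, 0.783, 0.688 and 0.578 CPM. All Ag samples lay above all Control samples, on 15 to 42 counts per Ag sample and 10 to 17 per Control sample. The log2 fold change was 1.07 (SE 0.27, edgeR adjusted p 0.0321, exact permutation p 0.0079). In SiO2 the levels were 0.796, 0.712, 0.957, 0.571 and 1.19 CPM and overlapped both other groups, with a log2 fold change of 0.31 (SE 0.26, edgeR adjusted p 0.661) from Control. The direct difference, SiO2 minus Ag, was -0.76 (SE 0.26) and did not pass (edgeR adjusted p 0.104). The Ag call was lost without Control replicate 2, 3 or 4 or Ag replicate 7 or 10, with edgeR adjusted p of 0.0182 to 0.0794 over the 10 fits. The log2 fold change of gst-9 ran from 0.93 to 1.18 over these fits. Without those Control samples 2.17%, 1.72% and 2.49% of all genes were called, against 7.76% with all samples. Without those Ag samples it was 4.28% and 4.8%. The gst-9 call did not rest on Ag replicate 8, without which the log2 fold change was 1.18 (edgeR adjusted p 0.0182).

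Markers of other tissues moved in the same contrast as gst-9. The summed level of 4 germline and oocyte markers was 753 to 1311 CPM in Ag and 463 to 904 CPM in Control, and glh-1 and pgl-1, germ granule genes, were 2 of 4 called, both higher (log2 fold changes 0.93 and 0.68, edgeR adjusted p 0.0103 and 0.032). In the same contrast 1 of 5 intestine markers, the yolk protein gene vit-6, was higher (0.34, edgeR adjusted p 0.0299), while 1 of 4 neuron markers (unc-119) and 1 of 3 pharynx markers (pha-4) were lower. The span of gst-9 also holds msp-33, a major sperm protein gene on the opposite strand, without sharing exon bases. msp-33 was higher in Ag than in Control by 1.19 and in SiO2 than in Control by 1.22 on the log2 scale (edgeR adjusted p 0.0444 and 0.00747). The summed level of 3 sperm markers was 7.32 to 15.7 CPM in SiO2, 5.88 to 25.9 CPM in Ag and 3.55 to 8.13 CPM in Control. The part of these in the gst-9 result was not tested.

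gst-6 and gst-9 lie in the same cluster on chromosome II, with gst-7 and gst-8 between them. gst-7, the second most expressed of the 52 genes, had 65.5, 84.5, 84.7, 105 and 88.9 CPM in SiO2, 71.5, 71.8, 99.1, 108 and 100.2 CPM in Ag and 95.0, 76.5, 75.3, 93.0 and 104 CPM in Control. Its groups overlapped throughout, with log2 fold changes of -0.05 (SE 0.12) in SiO2, 0.02 (SE 0.14) in Ag and -0.07 (SE 0.14) for SiO2 minus Ag. gst-8 had 1 to 8 counts per sample, too few to show a difference at this depth. Of the 4 genes in this cluster, gst-6 was called lower in SiO2 and gst-9 higher in Ag. For neither did the direct SiO2 minus Ag test pass (edgeR adjusted p 0.263 and 0.104). The 2 calls therefore do not show that the exposures affected different genes.

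**Figure D3:**
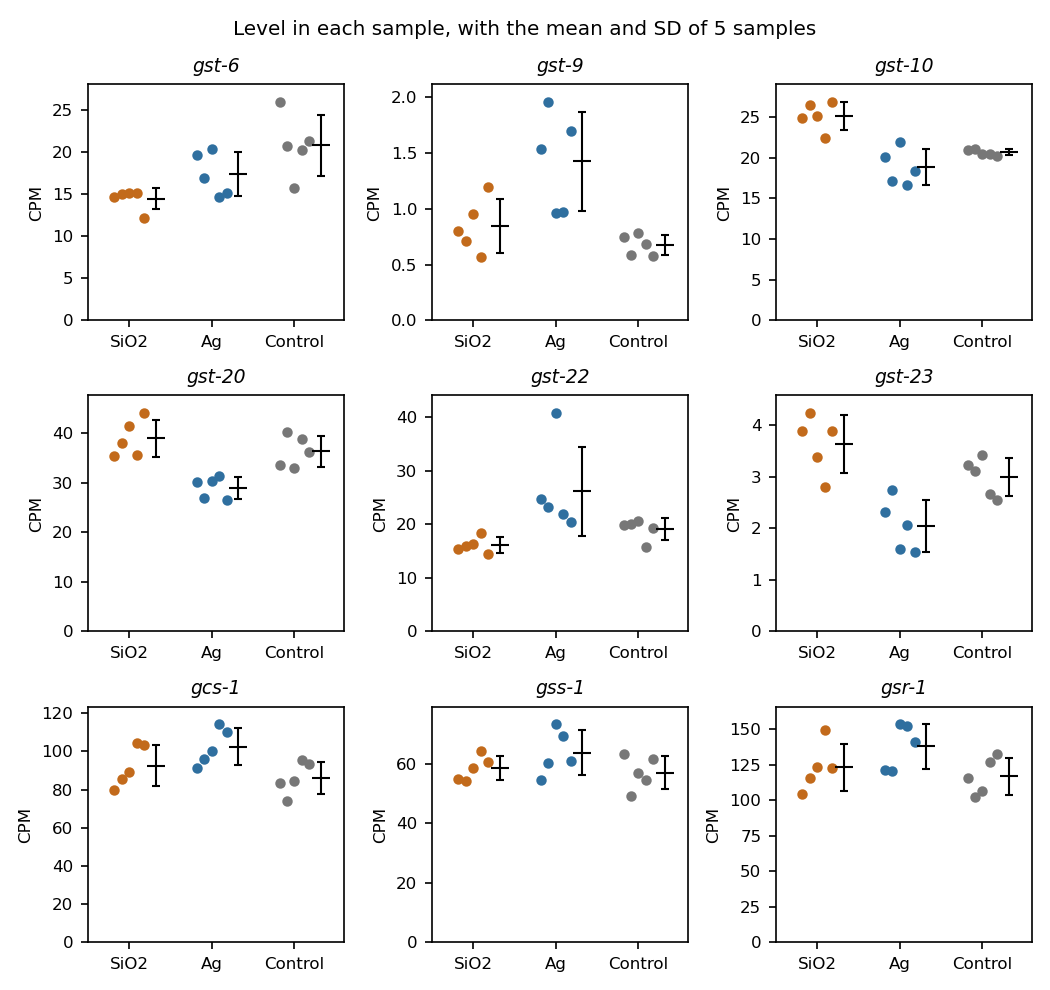
Level in CPM (vertical axis, from 0) of the 6 called transferases and of gcs-1, gss-1 and gsr-1 in each SiO2, Ag and Control sample; bars are the mean and SD of 5 samples. gst-10, gst-20 and gst-23 show SiO2 above Ag without overlap and gst-22 shows SiO2 below Ag, with Ag replicate 8 at 40.8 CPM.

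The exposures themselves differed in 4 transferases, 3 of them higher in SiO2. gst-10 (WBGene00001758, chromosome V, 2561690 to 2564645, plus strand), known in C. elegans for conjugating 4-hydroxynonenal, a lipid peroxidation product, had 24.9, 26.5, 25.1, 22.4 and 26.8 CPM in SiO2 and 20.01, 17.1, 21.96, 16.63 and 18.3 CPM in Ag. The groups did not overlap, and SiO2 minus Ag was 0.42 on the log2 scale (SE 0.10, edgeR adjusted p 0.0208). Control samples lay at 20.2 to 21.0 CPM, below all SiO2 samples and within the range of Ag. Relative to Control the log2 fold change was 0.28 (SE 0.10) in SiO2 and -0.13 (SE 0.11) in Ag, and neither passed (edgeR adjusted p 0.142 and 0.409), although DESeq2 called the SiO2 difference (adjusted p 0.0193). The call between the exposures was lost without Ag replicate 9 or SiO2 replicate 13 (edgeR adjusted p 0.0602 and 0.0536) and with the Kallisto estimates (0.0745). Those fits called 2.07%, 1.86% and 2.81% of all genes, against 3.4% with the HTSeq counts of all 15 samples.

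gst-20 (WBGene00001768, chromosome II, 13608154 to 13609824, minus strand) had 35.5, 38.2, 41.5, 35.6 and 44.1 CPM in SiO2, against 30.1, 26.9, 30.4, 31.4 and 26.5 CPM in Ag. Every SiO2 sample was above every Ag sample, with a difference of 0.43 (SE 0.10, edgeR adjusted p 0.0183). Control had 33.6, 40.2, 33.1, 38.9 and 36.4 CPM, all above the Ag samples and within the range of SiO2 or just below it. Ag minus Control was -0.33 (SE 0.10), which missed the threshold with an edgeR adjusted p of 0.0565 and passed it in 6 of the 9 alternatives that kept all samples. SiO2 minus Control was 0.09 (SE 0.10, edgeR adjusted p 0.757). The difference between the exposures was not called without Ag replicate 7 or 10 or SiO2 replicate 13 or 15 (edgeR adjusted p 0.0538 to 0.0678), nor with the Kallisto estimates (0.0525). Those fits called 2.79%, 2.89%, 1.86%, 2.37% and 2.81% of all genes.

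gst-23 (WBGene00001771, chromosome V, 3243284 to 3244502, plus strand) had 3.88, 4.23, 3.37, 2.80 and 3.88 CPM in SiO2 and 2.31, 2.75, 1.60, 2.06 and 1.53 CPM in Ag. The groups did not overlap, but the closest samples, at 2.80 and 2.75 CPM, nearly met. SiO2 minus Ag was 0.82 (SE 0.19, edgeR adjusted p 0.0204), the largest of the 4 called differences in absolute size. Control overlapped both, with 3.22, 3.10, 3.41, 2.66 and 2.54 CPM, and the log2 fold changes from it were 0.28 (SE 0.17) in SiO2 and -0.53 (SE 0.20) in Ag (edgeR adjusted p 0.475 and 0.103). The call between the exposures was lost without Ag replicate 10 or SiO2 replicate 11 or 12 (edgeR adjusted p 0.0548 to 0.0711) and in a fit of the 2 groups alone (0.0652). Those fits called 2.89%, 1.89%, 2.03% and 1.98% of all genes.

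gst-22 (WBGene00001770, chromosome V, 16231032 to 16232282, minus strand) went the other way. It had 15.4, 15.98, 16.4, 18.3 and 14.5 CPM in SiO2 and 24.6, 23.1, 40.8, 21.99 and 20.3 CPM in Ag, and no SiO2 sample reached the lowest Ag sample. SiO2 minus Ag was -0.70 (SE 0.16, edgeR adjusted p 0.0181). The size of the difference rested in part on Ag replicate 8, and without it SiO2 minus Ag was -0.48 (SE 0.11, edgeR adjusted p 0.0195). It was called in each of the 15 fits that left out 1 sample and in each of the 9 alternatives that kept all samples. Among markers of other tissues, 1 of 3 pharynx markers (tnt-4) was higher in SiO2 than in Ag by 0.64 (edgeR adjusted p 0.0427), and its part in these 4 differences was not tested. Control had 19.9, 20.1, 20.5, 15.7 and 19.3 CPM and was not separated by the fit from SiO2 (-0.25, SE 0.12, edgeR adjusted p 0.346) or from Ag (0.45, SE 0.17, edgeR adjusted p 0.1). Without Ag replicate 8 the Ag value was 0.24 (SE 0.12, edgeR adjusted p 0.206).

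None of the 3 genes of glutathione synthesis and recycling was called in any comparison, by edgeR or by DESeq2. At an unadjusted p under 0.05 the edgeR test passed gcs-1 and gsr-1 in Ag and none of them in SiO2 or between the exposures. In Ag it passed 29.9% of all genes and 38.1% of those at 1 CPM or more. gcs-1 (WBGene00001527, chromosome II, 9035562 to 9038301) had 80.0, 85.6, 89.3, 105 and 103 CPM in SiO2, 91.2, 95.8, 100.2, 114 and 110.3 CPM in Ag and 83.7, 73.9, 84.4, 95.3 and 93.1 CPM in Control. All 5 Ag samples lay above the Control mean, yet the groups overlapped. Ag minus Control was 0.25 (SE 0.10, edgeR adjusted p 0.113) and SiO2 minus Control 0.11 (SE 0.10, edgeR adjusted p 0.711). This gene did not follow Ag replicate 8, whose level was 0.974 times the mean of the other Ag samples.

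gsr-1 (WBGene00008117, chromosome III, 3650907 to 3652958) had 105, 116, 123, 149.6 and 123 CPM in SiO2, 122, 121, 154, 153 and 141 CPM in Ag and 116, 102, 106, 127 and 133 CPM in Control. All 5 Ag samples again lay above the Control mean, and the groups again overlapped. The log2 fold change was 0.08 (SE 0.11, edgeR adjusted p 0.814) in SiO2 and 0.24 (SE 0.11, edgeR adjusted p 0.148) in Ag. gss-1 (WBGene00010941, chromosome II, 9414563 to 9416431) was at 58.5 ± 4.18 CPM in SiO2, 63.6 ± 7.55 CPM in Ag and 57.0 ± 5.67 CPM in Control (SD, n = 5 each). Its log2 fold changes were 0.04 (SE 0.09) in SiO2 and 0.16 (SE 0.11) in Ag, with edgeR adjusted p of 0.898 and 0.322. The 3 genes were also not separated between the exposures, where SiO2 minus Ag ran from -0.16 to -0.12 with edgeR adjusted p of 0.398 to 0.499. C46F11.5 lies on the opposite strand and shares 93 bp with gsr-1, 5.9% of its exon bases, and whether the counting used strand is not stated in the sources used here.

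Of the other transferases with a known place in C. elegans work, gst-1 came nearest to a call. gst-1 (WBGene00001749, chromosome III, 9059331 to 9060181), a pi-class relative and the most expressed of the 52 genes, had 92.5, 113, 99.8, 141 and 119.9 CPM in SiO2, 126, 123, 151, 159 and 135 CPM in Ag and 128, 89.7, 89.8, 104 and 118 CPM in Control. All 5 Ag samples exceeded the Control mean, but 1 Control sample lay within the Ag range. Ag minus Control was 0.39 (SE 0.12, edgeR adjusted p 0.0543), and the gene was called in 3 of the 9 alternatives that kept all samples and without Control replicate 1 (edgeR adjusted p 0.0439). SiO2 minus Control was 0.10 (SE 0.13, edgeR adjusted p 0.804), and SiO2 minus Ag was -0.29 (SE 0.12, edgeR adjusted p 0.191).

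gst-4 (WBGene00001752, chromosome IV, 10142225 to 10143099), the SKN-1 reporter, varied strongly between replicates. It had 8.02, 7.396, 8.96, 11.2 and 7.91 CPM in SiO2, 5.52, 4.24, 14.2, 6.39 and 5.44 CPM in Ag and 8.83, 3.42, 3.87, 4.21 and 6.65 CPM in Control. The SiO2 samples exceeded 4 of the 5 Control samples, and Control replicate 1 lay among them. SiO2 minus Control was 0.70 (SE 0.23, edgeR adjusted p 0.135, exact permutation p 0.0397), and it was called without Control replicate 1, at 0.94 (edgeR adjusted p 0.0348). Ag minus Control was 0.40 (SE 0.32, edgeR adjusted p 0.415) with Ag replicate 8 and 0.0017 (SE 0.25, edgeR adjusted p 0.997) without it. SiO2 minus Ag was 0.29 (SE 0.29, edgeR adjusted p 0.586) with that library and 0.69 (SE 0.24, edgeR adjusted p 0.126) without it. gst-4 shares 65 bp, 8.9% of its exon bases, with dhs-12 on the same strand. Reads lying wholly in that stretch, or running through it from one gene into the other, are not counted for either.

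The kappa-class gene gstk-1 (WBGene00014251, chromosome II, 9656705 to 9657719), related to a mitochondrial and peroxisomal enzyme of mammals, had 17.5, 17.8, 17.9, 21.2 and 20.8 CPM in SiO2, 21.9, 18.6, 34.0, 22.7 and 22.03 CPM in Ag and 21.7, 17.6, 18.3, 18.3 and 21.2 CPM in Control. Ag replicate 8 lay far above the rest of its group, and the other samples of the 3 groups overlapped. Ag minus Control was 0.30 (SE 0.15, edgeR adjusted p 0.193) with that library and 0.14 (SE 0.12, edgeR adjusted p 0.458) without it. SiO2 minus Control was -0.03 (SE 0.11). For gsto-1 (WBGene00016204, chromosome III, 7945542 to 7947018), an omega-class gene, the means were 14.7 ± 2.11 CPM in SiO2, 16.59 ± 3.76 CPM in Ag and 16.1 ± 2.72 CPM in Control (SD, n = 5 each), with log2 fold changes of -0.14 (SE 0.14) in SiO2 and 0.04 (SE 0.16) in Ag. Without Ag replicate 8 the gsto-1 value in Ag was -0.11 (SE 0.14, edgeR adjusted p 0.642). By class, none of the 2 kappa-class and 3 omega-class genes was called in any comparison by edgeR or DESeq2, and 1, gstk-1 in SiO2 against Ag, had an unadjusted p under 0.05. The calls all fell in the gst- family, which holds 44 of the 52 genes. They were 1 of 44 (2.27%) in each comparison with Control and 4 of 44 (9.09%) between the exposures. Of all genes, 2.66% were called in SiO2, 7.76% in Ag and 3.4% between the exposures. The other classes are too small to be compared with the gst- family.

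**Figure D4:**
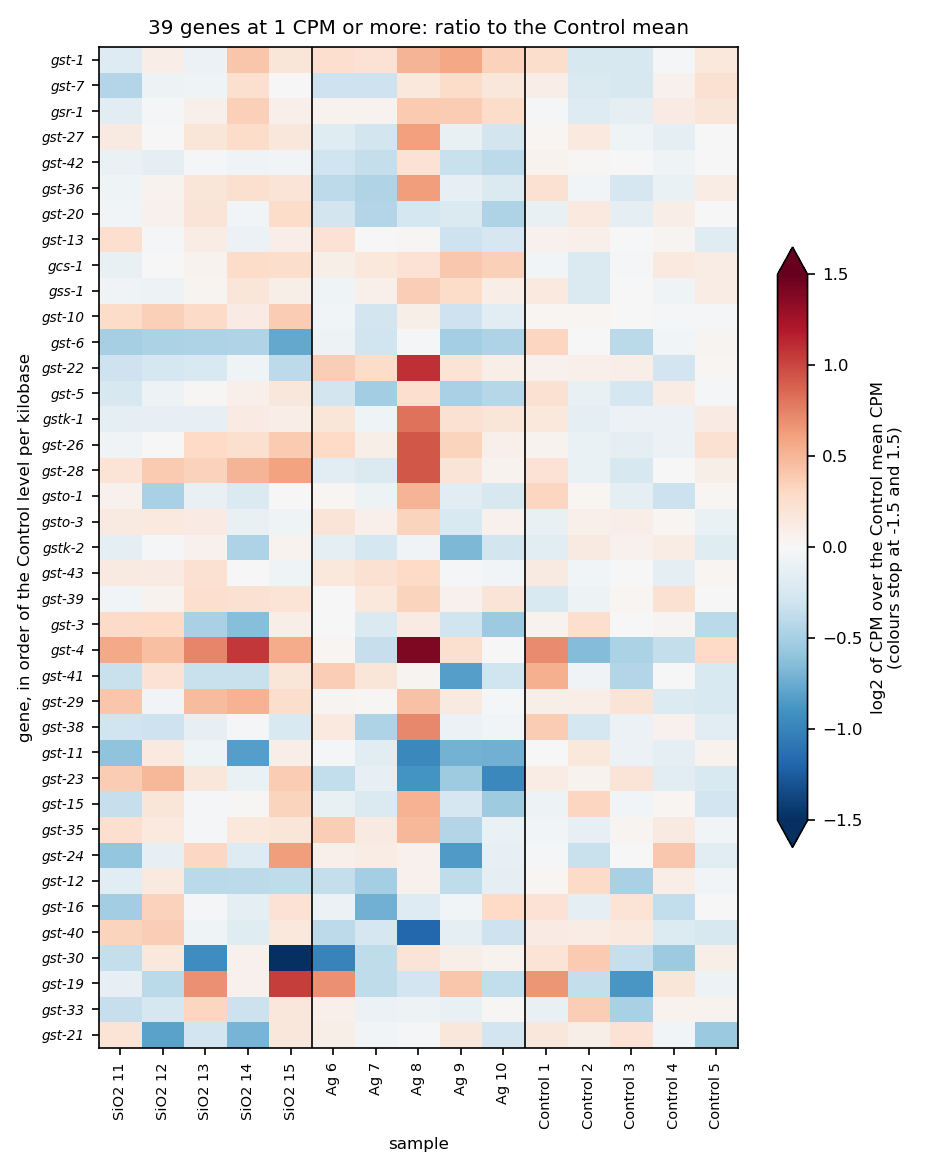
Log2 of each sample's CPM over the Control mean (colour; red above, blue below, colours ending at 1.5 either way) for the 39 genes at 1 CPM or more (rows, in Control order), with samples of SiO2, Ag and Control in columns. The column of Ag replicate 8 is the reddest of the Ag group, with gst-4 at 14.2 CPM and gst-28 at 29.4 CPM, and the row of gst-6 is blue across the SiO2 samples.

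The genes named in the rest of this account of the transferases were picked after their values were seen. The excess of Ag replicate 8 was uneven across the 52 genes. Its level was 2.63 times the mean of the other Ag samples for gst-4, 1.94 times for gst-28, 1.89 times for gst-36, 1.81 times for gst-22 and 1.77 times for gst-27, but 1.13 times for gst-7 and 1.11 times for gst-1. In gst-42 it moved a call. The SiO2 samples had 50.3, 48.6, 52.9, 51.9 and 52.3 CPM, the Ag samples 43.8, 42.3, 62.7, 43.0 and 41.2 CPM and the Control samples 56.1, 54.8, 53.9, 51.4 and 53.7 CPM. The other Ag samples lay below every sample of both groups, and Ag replicate 8 lay above them. Without it gst-42 was called lower in Ag than in Control, and gst-27 was called higher in SiO2 than in Ag. Markers of other tissues also set Ag replicate 8 apart. Its summed sperm markers were the highest of the group, at 25.9 CPM against 5.88 to 10.7 CPM in the other Ag samples, with all 3 genes highest. Of the 5 intestine markers, elt-2, ges-1 and ifb-2 were highest in it (63.1, 63.2 and 788 CPM, against at most 52.6, 43.2 and 602 CPM in the other Ag samples), while the yolk genes vit-2 and vit-6 were within the range of the others. Its summed pharynx markers were the lowest, at 212 CPM against 264 to 311 CPM, and so were its molting markers, at 130 CPM against 245 to 323 CPM. The sums of muscle, neuron, adult hypodermis and germline markers lay within the range of the other Ag samples. The part of these in its values was not tested.

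Of the 52 genes, 28 are on chromosome II, 9 on V, 5 on III, 5 on IV, 3 on X and 2 on I, and 25 lie in 4 clusters of 3 or more with gaps of at most 20 kb. The 9 genes gst-26, gst-27, gst-28, gst-29, gst-39, gst-31, gst-32, gst-34 and gst-35 (chromosome II, 15163817 to 15185389) summed to 107 ± 7.98 CPM in SiO2, 101 ± 27.2 CPM in Ag and 92.1 ± 4.45 CPM in Control (SD, n = 5 each). The SiO2 samples (97.1 to 114.6 CPM) lay above the Control samples (86.9 to 95.7 CPM), a description without a test. The Ag mean rested on Ag replicate 8, at 149 CPM, and the other 4 Ag samples (84.4 to 94.8 CPM) averaged 88.7 CPM, below the Control mean. Log2 fold changes were positive for 8 of the 9 in SiO2 and for 7 of the 9 in Ag, where 52.7% and 49.4% of all genes were positive, and none of the 9 was called by the quasi-likelihood test. At an unadjusted p under 0.05 it passed 1 of the 9 in SiO2 and 1 in Ag, where 14.9% and 29.9% of all genes passed. In SiO2 gst-28 was called by the edgeR likelihood ratio test, by DESeq2 and with the Kallisto estimates. The nearest to a call was gst-28, with 17.7, 20.2, 19.7, 21.98 and 23.4 CPM in SiO2, against 18.0, 14.4, 13.0, 15.3 and 16.4 CPM in Control. The lowest SiO2 sample overlapped the highest Control sample, and the log2 fold change was 0.42 (SE 0.12, edgeR adjusted p 0.0748).

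The 9 genes from gst-20 to gst-18 (chromosome II, 13608154 to 13630887) summed to 49.8 ± 5.72 CPM in SiO2, 39.0 ± 2.99 CPM in Ag and 47.2 ± 3.48 CPM in Control, and most of each sum was gst-20. The Ag samples (35.5 to 42.0 CPM) lay below both other groups (43.7 to 57.8 CPM in SiO2 and 43.1 to 51.2 CPM in Control). gst-17 and gst-18 in this cluster share 351 bp of exon, 32.4% of the one and 59.1% of the other, and had 0 to 3 and 0 to 4 counts per sample. The 3 genes gst-3, gst-2 and gst-4 on chromosome IV summed to 15.7 ± 0.74 CPM in SiO2, 13.5 ± 4.87 CPM in Ag and 12.5 ± 2.27 CPM in Control, and the groups overlapped. Without Ag replicate 8 the Ag mean of this sum was 11.3 CPM, below that of Control.

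At the low end, 7 of the 52 genes had no count in at least 1 sample. gst-37 (WBGene00001785, chromosome V) had 0, 1, 0, 2 and 1 counts in SiO2, 1, 1, 2, 1 and 2 counts in Ag and 0, 0, 0, 1 and 0 counts in Control. gst-25 (WBGene00001773, chromosome I) had 0, 1, 1, 1 and 1 counts in SiO2, 1, 0, 1, 1 and 0 counts in Ag and 0, 2, 0, 0 and 1 counts in Control. In gst-37 every Ag sample lay above every Control sample on the CPM scale, on 7 counts in all in Ag and 1 in Control. The ratio of Ag to Control was 7.43, with an exact 95% interval of 0.955 to 335 that covers counting error only, and the edgeR test did not pass it (adjusted p 0.108). For gst-25, on 3 counts in each of these groups, the ratio was 1.06 (0.142 to 7.93).

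The wider glutathione pathway was examined through a list of 27 measured genes: peroxidases, glutaredoxins, glyoxalase, phytochelatin synthase, exporters of conjugates and suppliers of NADPH. The list also held hint-1, which belongs to none of these classes. In Ag 3 of 27 were called, all higher than in Control (11.1%, where 7.76% of all genes and 10.5% of those at 1 CPM or more were called). At an unadjusted p under 0.05, 10 of 27 differed (8 higher, 2 lower), against 29.9% of all genes, and the median log2 fold change was 0.11, beside -0.01 for all genes. The exporter gene mrp-1 went the other way, with all Ag samples (103 to 117 CPM) below all Control samples (120 to 150 CPM). It was not among the 3 calls, but DESeq2 called it lower. idh-1, a cytosolic isocitrate dehydrogenase that yields NADPH, had 508, 500.5, 702, 686 and 582 CPM in Ag and 462, 337, 370.3, 377 and 499 CPM in Control. Its groups did not overlap, although the highest Control sample, at 499 CPM, almost reached the lowest Ag sample, and the log2 fold change was 0.54 (SE 0.13, edgeR adjusted p 0.026).

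gspd-1, glucose-6-phosphate dehydrogenase and the first enzyme of the pentose phosphate pathway, had 66.9, 64.5, 70.2, 78.6 and 70.1 CPM in Ag and 65.1, 37.8, 44.2, 45.5 and 59.8 CPM in Control. It was higher in Ag by 0.47 (SE 0.14, edgeR adjusted p 0.0447), although 1 Control sample lay just above the lowest Ag sample. pcs-1, the phytochelatin synthase that builds metal-binding peptides from glutathione, had 22.3, 22.6, 26.2, 25.8 and 22.1 CPM in Ag and 17.8, 16.9, 14.4, 17.6 and 20.7 CPM in Control. All Ag samples were above all Control samples, by 0.45 (SE 0.12, edgeR adjusted p 0.0356). Without Ag replicate 8 idh-1 kept its call (0.48, edgeR adjusted p 0.0362), whereas gspd-1 (0.47, edgeR adjusted p 0.0573) and pcs-1 (0.41, edgeR adjusted p 0.0536) did not. Each of the 3 was also lost without Control replicate 2, 3 or 4 or Ag replicate 9, with edgeR adjusted p up to 0.126. In those fits 2.17%, 1.72%, 2.49% and 3.37% of all genes were called, against 7.76% with all samples. gspd-1 was further lost without Ag replicate 6, 7 or 10 and with scaling by library size alone (edgeR adjusted p 0.0511), and pcs-1 without Control replicate 1 or Ag replicate 7 or 10.

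In SiO2 none of the 27 was called against Control by the quasi-likelihood test, and 1 had an unadjusted p under 0.05, against 14.9% of all genes. DESeq2 called mrp-5, an exporter of the ABC family, lower. The 3 genes called for Ag had log2 fold changes of 0.11 (SE 0.13) for idh-1, 0.15 (SE 0.14) for gspd-1 and 0.20 (SE 0.13) for pcs-1 in SiO2. Between SiO2 and Ag none of the 27 was called by that test and 7 had an unadjusted p under 0.05. That was 25.9%, against 20.9% of all genes and 27.0% of those at 1 CPM or more. SiO2 minus Ag was -0.44 (SE 0.14, edgeR adjusted p 0.0771) for idh-1, -0.33 (SE 0.13, edgeR adjusted p 0.162) for gspd-1 and -0.24 (SE 0.12, edgeR adjusted p 0.255) for pcs-1. For idh-1 the difference was called by the edgeR likelihood ratio test (adjusted p 0.0432), by DESeq2 (0.0366), which also called mrp-5 lower in SiO2, and without SiO2 replicate 14 (-0.52, edgeR adjusted p 0.0294). The germline markers described above moved in the same Ag contrast, and their part in the pathway calls was not tested.

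A list of 23 regulators of these genes and other targets of the same regulators had 2 calls in Ag, 8.7% of the list. There 7.76% of all genes and 10.5% of those at 1 CPM or more were called. At an unadjusted p under 0.05, 8 of 23 differed there (2 higher, 6 lower). That was 34.8%, against 29.9% of all genes and 38.1% of those at 1 CPM or more. mtl-2, a metallothionein that binds metals, had 192, 175, 325, 171 and 178 CPM in Ag, against 141.7, 140.3, 133, 109.7 and 126 CPM in Control. All Ag samples were higher, by 0.68 (SE 0.16, edgeR adjusted p 0.0242) with Ag replicate 8 at 325 CPM and by 0.46 (SE 0.10, edgeR adjusted p 0.0131) without it. In SiO2 it had 214, 218, 192, 163 and 118 CPM, above every Control sample except for the last. SiO2 minus Control was 0.47 (SE 0.15, edgeR adjusted p 0.109), and it was called without SiO2 replicate 15 (0.60, edgeR adjusted p 0.00774). SiO2 minus Ag was -0.20 (SE 0.17, edgeR adjusted p 0.519) with Ag replicate 8 and 0.0136 (SE 0.14, edgeR adjusted p 0.962) without it. nsy-1, the MAP kinase kinase kinase of the p38 pathway that acts on SKN-1, was lower in all 5 Ag samples (111, 126, 118, 128 and 136 CPM) than in Control (139.6, 163, 173, 187 and 153 CPM), by -0.39 (SE 0.10, edgeR adjusted p 0.0295). Both calls were lost without Control replicate 2, 3 or 4, and that of nsy-1 also without Ag replicate 6, 7 or 9 (edgeR adjusted p up to 0.0875). Without those Control samples 2.17%, 1.72% and 2.49% of all genes were called, against 7.76% with all samples. Without those Ag samples it was 8.29%, 4.28% and 3.37%. The call of mtl-2 was lost with the Kallisto estimates too (edgeR adjusted p 0.0551).

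skn-1 itself was at 164 CPM in SiO2, 187 CPM in Ag and 177 CPM in Control on average. Its log2 fold changes of -0.11 (SE 0.09) in SiO2 and 0.08 (SE 0.09) in Ag did not pass (edgeR adjusted p 0.667 and 0.563). wdr-23, which targets SKN-1 for degradation, had log2 fold changes of -0.0041 (SE 0.09) in SiO2 and 0.14 (SE 0.09) in Ag. With all samples kept, none of the 23 was called in SiO2 against Control by edgeR or DESeq2, and 4 had an unadjusted p under 0.05. That was 17.4%, against 14.9% of all genes and 15.4% of those at 1 CPM or more. Between the exposures none was called by the quasi-likelihood test and 5 had an unadjusted p under 0.05. That was 21.7%, against 20.9% of all genes and 27.0% of those at 1 CPM or more. The edgeR likelihood ratio test and DESeq2 called mtl-1, another metallothionein, higher in SiO2 than in Ag. In SiO2, where the hypodermal collagens rol-6 and bli-1 (2 of 3 adult markers), col-17 (1 of 4 molting markers) and the sperm gene msp-142 (1 of 3) were higher than in Control, the corresponding part in the gst-6 result was not tested.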

How the data were processed

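The data were RNA-seq reads of 15 whole-worm samples, 5 in each of SiO2, Ag and Control, which the labels describe as biological replicates. Per the paper's methods, the authors trimmed 100-base single-end reads with Trim Galore 0.4.5, aligned them to WBcel235 with HISAT2 2.1.0 and deposited counts per gene from HTSeq 0.9.1 (intersection-strict, Ensembl 91), raw and without normalization. Where genes overlap, that mode drops reads that cannot be assigned to 1 gene alone. Reads aligned to several places are usually lost too, and whether this lowered similar transferases here was not tested. Use of strand is not stated in the sources used here. The authors also deposited estimated counts from Kallisto, rounded here and used as an alternative.

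Each exposure was compared with Control in the 10 samples concerned, and SiO2 with Ag in all 15, with edgeR 4.0.16 in R 4.3.3: TMM, a minimum total of 3 counts per gene, quasi-likelihood F test, and Benjamini-Hochberg adjustment over all tested genes. SEs were derived from the log2 fold change and F. Named genes also had a two-sided exact permutation test on log2 CPM (prior count 2) over 252 arrangements. Depth was 16560734 to 24296570 assigned reads per sample. The fits were tested on simulated data.

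Symbols, positions and exon lengths came from Ensembl 115 of WBcel235, where 46603 of 46778 genes were found. Named are all called members, gcs-1, gss-1 and gsr-1, 6 transferases known from earlier C. elegans work (gst-1, gst-4, gst-7, gst-10, gsto-1 and gstk-1), the 3 highest in Control per kilobase, the 2 nearest the count minimum, and called genes of the 2 lists. In the pathway list 27 of 28 symbols were matched, hpgd-1 not, and none began with ggt-. The members and lists were chosen with earlier results of these data known. Alternatives were DESeq2 1.42.0, a likelihood ratio test on tagwise dispersions, filterByExpr, minimum totals of 1 and 10, Kallisto in place of HTSeq, scaling by RLE or by library size only, one fit to all 15 samples (for SiO2 against Ag, the 2 groups alone) and leaving out each sample. Sums of gene clusters without Ag replicate 8 were added after the data were seen. Planned checks of exon uniqueness and promoter motifs were not run, and no sequences were used here.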

Additional observations from a re-analysis of the deposited data

Results flagged for a closer look

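Within groups of 5, a sample far from the others (a gap of more than 0.71 of the group's range) was found in 15 of the 156 groups of the 52 genes, where chance flags about 1 in 20. Among the named genes, gst-22 was at 40.8 CPM, gst-4 at 14.2 CPM and gstk-1 at 34.0 CPM in Ag replicate 8, each the highest of its group. gst-6 was lowest in SiO2 replicate 15, at 12.2 CPM. gst-22 was lowest of the Control group in replicate 4, at 15.7 CPM. gst-37 was at 0.043 CPM in Control replicate 4, a single count and the one Control sample above 0.

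The direct comparison of the exposures gave differences in log2 fold change, SiO2 minus Ag, of 0.42 for gst-10, 0.43 for gst-20, 0.82 for gst-23 and -0.70 for gst-22, each with an edgeR adjusted p under 0.05.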

How the results depend on the processing

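The number of the 52 genes called in Ag against Control was 1, where 7.76% of all genes were called. It was 3 with the likelihood ratio test, DESeq2 or filterByExpr (13.4%, 15.3% and 13.2% of all genes). It was 2 with a minimum total of 10, library size only or all 15 samples in one fit (8.98%, 7.43% and 9.17%). In SiO2 against Control it was 1 (2.66% of all genes), and 2 with the likelihood ratio test or Kallisto (5.28% and 2.4%). It was 3 with DESeq2 (4.8%) and 0 with library size only or all 15 samples (2.27% and 1.05%). Between the exposures it was 4 (3.4% of all genes), and 2 with Kallisto (2.81%) and 3 with the 2 groups alone (1.98%). Leaving out each sample gave 0 to 2, 0 to 1 and 2 to 5 calls in these comparisons. The share of all genes called in those fits ran from 1.72% to 8.91%, 1.22% to 4.14% and 1.86% to 9.72%. The pathway list had 3 calls in Ag, and 6 (likelihood ratio), 7 (DESeq2) or 5 (filterByExpr), beside the shares of all genes given above. DESeq2 and filterByExpr both called mrp-1 lower and the rest higher. In SiO2 it had 0, and 1 with DESeq2, a minimum total of 10 or library size only (4.8%, 3.03% and 2.27% of all genes). Between the exposures it had 0, and 1 (likelihood ratio) or 2 (DESeq2), where 6.96% and 7.78% of all genes were called. Leaving out each sample gave 0 to 6, 0 to 1 and 0 to 2. The SKN-1 list had 2 calls in Ag, and 4 (DESeq2, filterByExpr) or 1 (Kallisto, 7.2% of all genes). Between the exposures it had 0, and 1 with the likelihood ratio test, DESeq2, a minimum total of 1 or 10, or RLE. There 6.96%, 7.78%, 3.23%, 3.43% and 3.24% of all genes were called. Leaving out each sample gave 0 to 3, 0 to 1 and 0 to 1. With Kallisto the summed level was 855 CPM in SiO2 and 830 CPM in Control. Leaving out each sample moved the means within 921 to 966 CPM in SiO2, 931 to 1007 CPM in Ag and 892 to 926 CPM in Control. The causes were not tested.

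For single named genes, 530 of 551 values under alternatives that kept all samples stayed on their side of the threshold with the same sign, 12 came to pass it and 7 no longer did. The 2 that reversed were gst-7 in Ag with library size only (-0.007) and gstk-1 in SiO2 with Kallisto (0.0401), neither of them called. With a sample left out, 655 of 735 values stayed so, 4 came to pass the threshold and 52 no longer did. The other 24 log2 fold changes changed sign, none of them called. They came from gss-1 (-0.0107 to 0.0712 over the fits), gsr-1 (-0.0106 to 0.1299), gst-1 (-0.0021 to 0.1671), gst-7 (-0.1424 to 0.0325) and gstk-1 (-0.0774 to 0.0085) in SiO2, gst-7 (-0.0522 to 0.094), gsto-1 (-0.1058 to 0.1073) and gst-25 (-0.2517 to 1.0296) in Ag, and gst-7 (-0.1543 to 0.0121), gst-25 (-0.0408 to 0.5427) and mtl-2 (-0.2706 to 0.0136) for SiO2 minus Ag.

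Kallisto CPM over HTSeq CPM ran from 0.652 (gst-2) to 1.16 (gst-21), with a median of 0.855. No paired analysis was possible because the sample numbers run from 1 to 15 without being shared between groups. At about 20 reads per CPM, differences in the 13 genes under 1 CPM are poorly resolved. The p-values set each group difference against the spread between samples, 5 per group. The paper's methods describe worms raised in separate wells, with more repeats per condition than the 5 samples used here. Whether the wells came from separate experiments is not stated in those methods.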
